A study of Mus musculus with 3 samples.

Results

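Transcripts of 10 noncoding snoRNA host genes were examined in RNA immunoprecipitation sequencing (RIP-seq) of YTHDF2 in mouse embryonic stem cells (ESCs). They were Gas5, Snhg1, Snhg3, Snhg4, Snhg5, Snhg6, Snhg8, Snhg12, Snhg15 and Snhg18, and they were taken from the count table by gene symbol. The table held 49997 genes, of which 19601 passed a filter on low counts and were tested. All 10 host genes passed it, although Snhg18 did so only through the immunoprecipitation (IP) libraries. In the annotation behind the table, 9 of the 10 had more than 1 exon, whereas Snhg8 was a single exon, so that all but Snhg8 are spliced there.

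A snoRNA host gene makes a long RNA whose introns hold small nucleolar RNAs (snoRNAs). The snoRNAs are trimmed out of the excised introns and guide the chemical modification or cleavage of ribosomal RNA in the nucleolus, whereas the joined exons leave as a separate spliced transcript. Several of these spliced transcripts start with a run of pyrimidines, as the mRNAs of the translation machinery do, carry short reading frames that ribosomes enter, and are removed in the cytoplasm by nonsense-mediated decay. YTHDF2 is a cytoplasmic reader of N6-methyladenosine (m6A) that recruits deadenylases to the RNA it binds and so promotes its decay.

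The study asked which transcripts YTHDF2 binds while ESCs are driven toward a 2-cell (2C) embryo-like state. The series held 1 input library and 2 YTHDF2 IP libraries, all from the E14 line treated with Dox (doxycycline) for 24 h. In the cell system of the study, Dox switches on a Dux transgene, and a tdTomato reporter under the Mervl promoter marks the 2C-like cells. Raw read counts per gene were deposited. No control-antibody IP was analysed here, and nothing in the labels says that the libraries came from separate cultures, so the p-values below measure the spread between these IP libraries, which may be technical.

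The 3 libraries held between 35259827 and 36986994 counts, and 3 counts, taken as the floor, equalled 0.0811 to 0.0851 CPM (counts scaled by library total). The summed level of 7 ESC markers was 5963 CPM in the input and 7173 and 7072 CPM in the IP libraries, and that of 5 markers of 2C-like cells was 1675, 2771 and 2770 CPM. The defining markers of both states were thus present in all 3 libraries. Summed levels of 4 primitive endoderm markers were 11.3, 19.4 and 15.7 CPM. Those of 3 trophoblast markers were 0.324, 0.766 and 0.780 CPM, with 1 of the 3 at 0 in the input. Those of 4 fibroblast markers were 29.1, 16.0 and 17.1 CPM. Most of the fibroblast sum was Thy1, at 26.9 CPM in the input, where Col1a1 had 2.03, Col1a2 0.189 and Postn 0.027 CPM.

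The host genes were short, and most had many exons for their length. Their median exonic length was 613 bases, compared with 3200 bases over all tested genes and 2040 bases over 2169 tested long noncoding RNA genes. All 10 were shorter than the median gene. Their median exon density was 6.81 exons per kilobase, compared with 2.32 over all tested genes. Of the 10, 8 lay above that gene median, whereas Snhg8 (1.27) and Snhg18 (1.35) lay below it. Density is the number of exons divided by length, so a short gene scores high with few exons. Gas5 had 13 exons of 28 to 119 bases and Snhg1 had 10 exons of 20 to 88 bases, which gave 20.97 and 21.01 exons per kilobase, and only 8 tested genes lay above 20. The spans held 29 annotated snoRNA genes, 28 in introns and 1, Snora24, inside the exon of Snhg8. Gas5 and Snhg1 held 8 each.

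**Figure D1:**
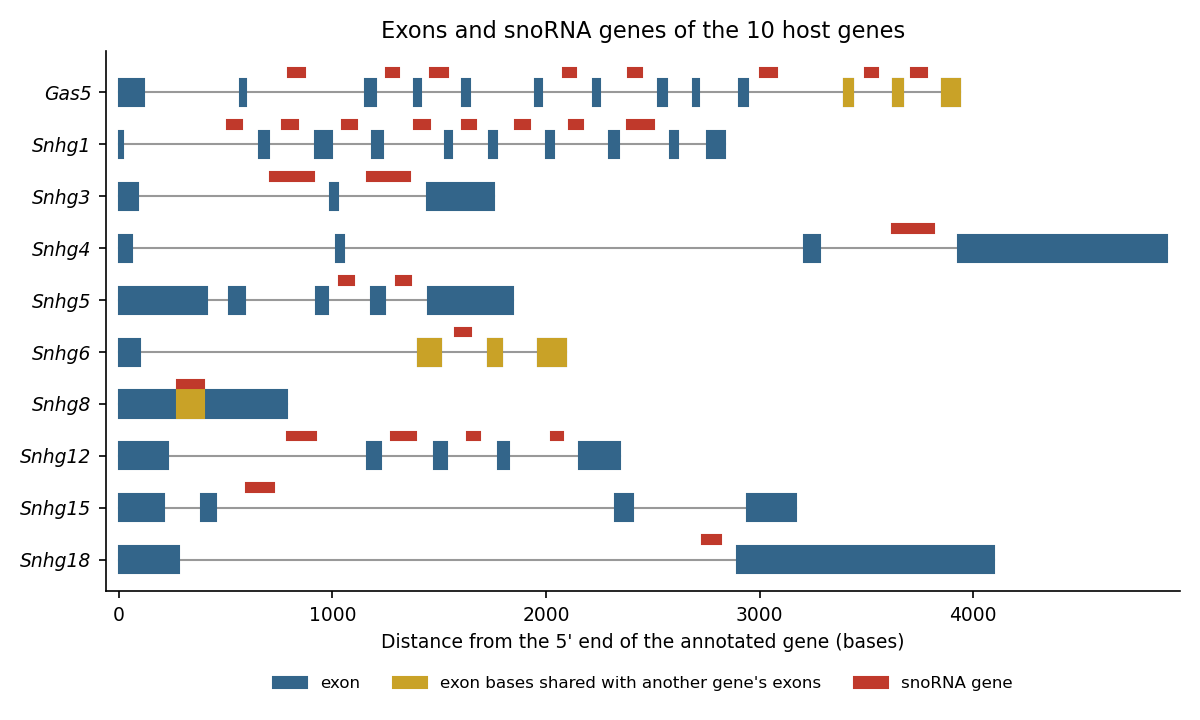
Map of the 10 host genes drawn to scale, with the distance from the 5′ end in bases on the horizontal axis, exons in blue, exon bases shared with the exons of another gene in yellow and snoRNA genes in red. Gas5 and Snhg1 alternate short exons with 8 snoRNA genes each, Snhg8 is 1 exon with its snoRNA gene inside, and yellow covers 75.7% of the exon bases of Snhg6.

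The annotated starts were read because pyrimidine-rich starts are a known trait of this class. RefSeq start tables of GRCm38.p6 held 8 of the 10 host genes, with 9 starts. Each line gives 10 bases before and 20 bases from the annotated start, on the strand of the gene, and capitals mark a run of at least 5 C or T bases that begins with C between 3 bases before and 8 bases after the start.
Gas5, upstream start (chr1:161034591-161034620, plus strand): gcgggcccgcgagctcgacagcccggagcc
Gas5, downstream start (chr1:161035156-161035185, plus strand): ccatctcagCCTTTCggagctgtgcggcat
Snhg1 (chr19:8723477-8723506, plus strand): tcttgtcggcctcatttttccttgttcggg
Snhg3 (chr4:132353667-132353696, minus strand): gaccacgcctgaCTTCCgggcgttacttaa
Snhg5 (chr9:88522878-88522907, minus strand): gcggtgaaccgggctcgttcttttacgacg
Snhg8 (chr3:123508317-123508346, minus strand): gttcagaagtCTCTTTggctgcgatccgcc
Snhg12 (chr4:132308668-132308697, plus strand): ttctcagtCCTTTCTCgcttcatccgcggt
Snhg15 (chr11:6528741-6528770, minus strand): ctgtgaccgtaactttaagcacacgtgagc
Snhg18 (chr15:32244643-32244672, minus strand): cccaggcCCCTCCTCTagccccgcctcttc
The run was found at 5 of these 9 starts, in 5 of the 8 host genes, compared with 11.5% of 32851 annotated starts. The starts with a run belonged to transcripts that were depleted in IP (Gas5 and Snhg3) and to ones that were not called at 2-fold (Snhg8, Snhg12 and Snhg18). A start without this run shows only that these letters are not in this window.

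The levels of the host transcripts in the input spanned a wide range. Levels between genes are compared here as counts per kilobase of exon scaled by library total (RPKM). Snhg1 was the highest of the 10 in each library, at 84.2 RPKM in the input and 87.9 and 85.9 RPKM in IP replicates 1 and 2. Snhg3 stood at 77.9, 41.9 and 33.1 RPKM and Snhg5 at 43.9, 34.2 and 34.4 RPKM in the same order. Snhg15 ranked below both in the input, with 32.2 RPKM, but above both in IP, with 51.2 and 54.5 RPKM. Snhg12 lay at 30.9, 29.2 and 30.7 RPKM, beside Snhg8 at 25.1, 23.7 and 18.0 RPKM. The middle of the range was therefore close together. Gas5, Snhg4 and Snhg6 were the dimmer ones, at 20.2, 14.5 and 4.25 RPKM in the input. Over the bases of Snhg6 that share no exon with another gene, its input level was 17.5 RPKM, above that of Snhg4. On the same basis Gas5 had 28.01 RPKM and Snhg8 had 30.05 RPKM in the input, so Gas5 was then close to the middle of the range. Snhg18 was at 0.0365 RPKM in the input, which is 2 counts and below the floor. Because there was 1 input library, the order in the input has no replicate spread.

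**Figure D2:**
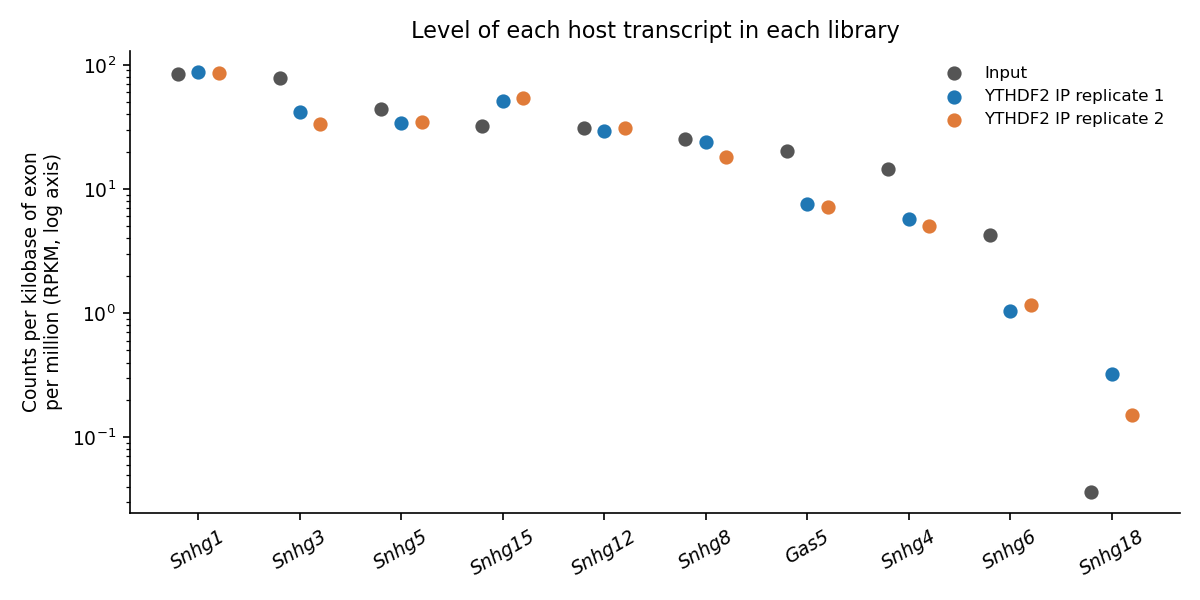
Level of each host transcript in the input (grey) and in YTHDF2 IP replicates 1 (blue) and 2 (orange), in RPKM on a log axis, ordered by the input level. Both IP points lie above the input for Snhg15, Snhg18 and, by a small margin, Snhg1, and the IP points of Gas5, Snhg3, Snhg4 and Snhg6 lie farthest below it.

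Together the 10 host transcripts took 0.0207% of all input counts (95% Wilson interval 0.0202 to 0.0212), compared with 0.0174% (0.0169 to 0.0178) and 0.0166% (0.0162 to 0.017) in IP replicates 1 and 2. Such intervals hold only the error of counting, and because both mates of a read pair were counted, they are narrower than the number of fragments would give. The share was lower in both IP libraries than in the input. Within it, Snhg15 made up 9.22% of the host transcript counts in the input and 17.5% and 19.4% in IP. Snhg1, with near-equal counts in the 3 libraries, made up 19.4%, 24.1% and 24.6%, so these shares also move with the counts of the other members. Snhg5 held 21.4%, 19.9% and 21.0%.

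To compare IP with input, counts were fitted across all 19601 genes with the quasi-likelihood test of edgeR, and a transcript was called at a Benjamini-Hochberg adjusted p under 0.05 and a fold change over 2. None of the 10 host transcripts was enriched, against 15.2% of all tested genes, and 4 were depleted, against 14%. Long noncoding RNA genes had 18% enriched and 14.1% depleted. At the same adjusted p and any fold change, 1 host transcript was higher in IP (28.5% of all genes) and 6 were lower (30.1% of all genes). After TMM scaling, the ratio to input was below 1 in both IP libraries for 8 host transcripts, of which Snhg1 lay above 1 when scaled by library totals, and above 1 in both for 2, compared with 45.3% and 44.2% of all tested genes. The median log2 fold change of the host transcripts was −0.41, or −0.45 over the 9 without Snhg18, compared with 0.0065 over all tested genes and 0.28 over long noncoding RNA genes.

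Leaving aside Snhg18, with 2 input counts, fitted log2 fold changes ran from −2.03 for Snhg6 to 0.62 for Snhg15. Within these 9, the log2 ratios of the IP libraries differed by 0.0129 to 0.395, and for 7 of them by less than 0.2. Neighbours in the order were not always separated, as the ratios of Gas5 (−1.52 and −1.58) lay between those of Snhg4 (−1.43 and −1.62). The ratios of Snhg8 (−0.18 and −0.57) likewise enclosed those of Snhg5.

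**Figure D3:**
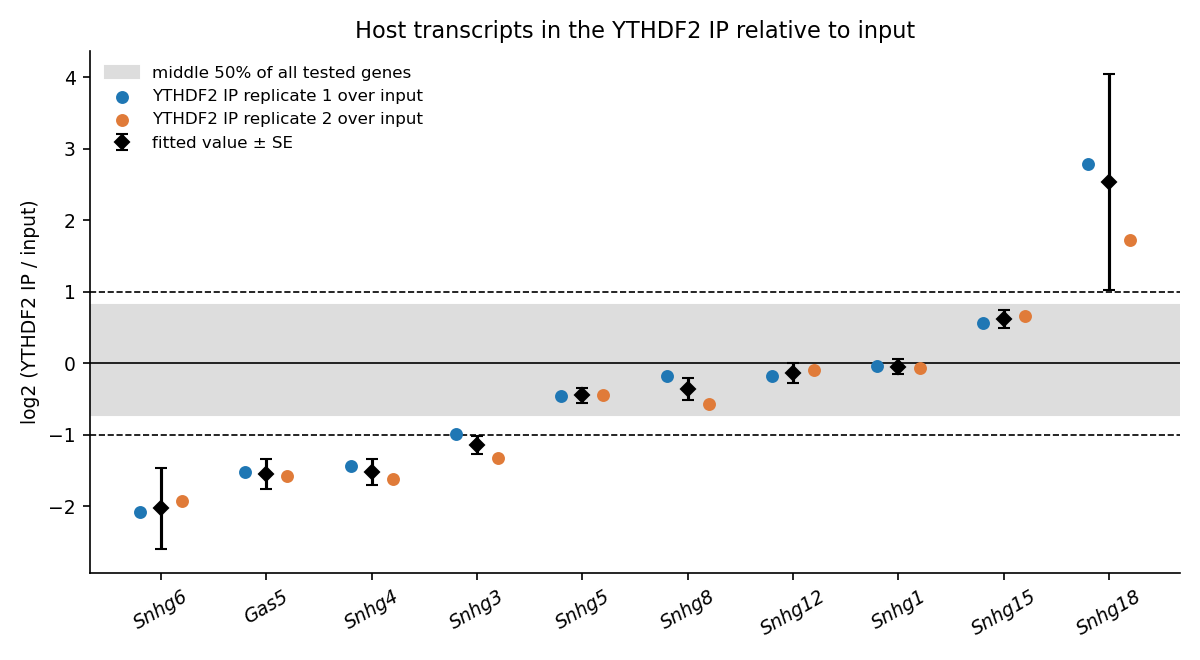
Log2 ratio of YTHDF2 IP to input for each host transcript, with IP replicate 1 in blue, IP replicate 2 in orange and the edgeR estimate ± SE in black, beside the middle 50% of all 19601 tested genes (grey band) and the 2-fold lines (dashed). Snhg6, Gas5, Snhg4 and Snhg3 lie below the lower line by their estimate, and the error bar of Snhg18, with 2 input counts, spans more than that of any other.

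Gas5, Snhg6, Snhg4 and Snhg3 were depleted in the YTHDF2 IP. Gas5, a transcript that accumulates in growth-arrested cells and whose introns encode box C/D snoRNAs, lies at chr1:161034601-161038539 on the plus strand. The input gave 462 counts and IP replicates 1 and 2 gave 164 and 160. Both IP libraries were low and close to each other. The fitted log2 fold change was −1.55 ± 0.209 (SE, adjusted p = 6.275e-10), a 2.93-fold lower level. Once the trend of the ratio with exon density was removed, the log2 fold change of Gas5 was −0.25 (adjusted p = 0.317), and the call was lost. At 20.97 exons per kilobase, Gas5 lies at the upper edge of the genes that set this trend, as does Snhg1. How well the trend holds at that edge was not tested.

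Snhg6, the host of Snord87, lies at chr1:9942025-9944118 on the minus strand. The input gave 64 counts and the IP libraries 15 and 17. Both IP libraries were below the input, and the log2 fold change was −2.03 ± 0.569 (adjusted p = 0.00143), a 4.09-fold lower level. Of its 407 exon bases, 308 overlap exons of Mcmdc2, a gene on the opposite strand, so its counts came from the remaining 99 bases. Mcmdc2 was also depleted, with 205, 100 and 96 counts and a log2 fold change of −1.10 ± 0.288 (adjusted p = 0.00062). With DESeq2 in place of edgeR the adjusted p of Snhg6 was 0.0796.

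Snhg4, the host of Snora74a, lies at chr18:35553410-35558316 on the plus strand and was the longest of the depleted transcripts, with 1151 exon bases. The input gave 618 counts and IP replicates 1 and 2 gave 233 and 208. Both IP libraries were below the input, and the log2 fold change was −1.53 ± 0.181 (adjusted p = 9.776e-12), a 2.88-fold lower level. With the GC trend removed the value was −0.91, inside 2-fold.

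Snhg3 is the host of Snora73a and Snora73b, which act in the cleavage of the precursor of small-subunit ribosomal RNA. It lies at chr4:132351933-132353686 on the minus strand and gave 1259 input counts, against 646 and 519 in IP replicates 1 and 2. Both IP libraries were below the input, and replicate 2 was the lower. The log2 fold change was −1.15 ± 0.128 (adjusted p = 8.866e-13), a 2.22-fold lower level that lay near the 2-fold line. Removing the trend with GC content, exon density or length gave −0.54, −0.65 and −0.98, and without IP replicate 2 the value was −0.99, each inside 2-fold. A fixed dispersion of 0.1 gave an adjusted p of 0.131.

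The values of the 4 transcripts nearest to 0 in the fit were all on the lower side. Snhg1 is the classic case of a gene whose introns, and not its exons, give the conserved products, and it lies at chr19:8723487-8726326 on the plus strand. The input gave 1482 counts and the IP libraries 1475 and 1468, so the 3 libraries were nearly level. The log2 fold change was −0.05 ± 0.101 (adjusted p = 0.695). Under total count scaling this was 0.05, and with the trends of GC content or exon density removed 0.46 and 1.25, so its side of 0 depends on the scaling.

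Snhg12, at chr4:132308678-132311024 on the plus strand, lies beside Snhg3 on the chromosome and hosts H/ACA and C/D snoRNAs. It had 693, 623 and 668 counts and a log2 fold change of −0.14 ± 0.141 (adjusted p = 0.398). The IP libraries were slightly below the input, by less than the test resolves. With the exon density trend removed the value was 0.47. Snhg8, at chr3:123507552-123508336 on the minus strand, had 728, 657 and 507 counts. Replicate 2 was the lowest of the 3, and the log2 fold change of −0.36 ± 0.147 passed the test (adjusted p = 0.0297) at less than 2-fold. Its adjusted p was under 0.05 in 5 of 13 fits. Snhg5, at chr9:88521052-88522897 on the minus strand, gave 1642 input counts and 1220 and 1249 IP counts. Both IP libraries were below the input by a like amount, with a log2 fold change of −0.45 ± 0.102 (adjusted p = 8.486e-05), a 1.37-fold lower level. With the GC or exon density trend removed the value was −0.17 (adjusted p = 0.149) and −0.13 (adjusted p = 0.263), and a fixed dispersion of 0.1 gave an adjusted p of 0.623, none of which passed.

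Snhg15 was the host transcript that was higher in IP. It is a short-lived transcript known to rise in cells under stress, and it lies at chr11:6525591-6528760 on the minus strand. The input gave 706 counts and IP replicates 1 and 2 gave 1068 and 1157. Both IP libraries exceeded the input, and the log2 fold change was 0.62 ± 0.126 (adjusted p = 1.712e-05), a 1.53-fold higher level that stayed under the 2-fold threshold. With the exon density trend removed it was 1.11 and passed it, and with a fixed dispersion of 0.1 its adjusted p was 0.5.

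Snhg18, the host of Snord123 at chr15:32240568-32244662 on the minus strand, gave 2 input counts, against 17 and 8 in IP replicates 1 and 2. Its log2 fold change of 2.53 ± 1.5 did not pass the test (adjusted p = 0.143). The ratio of both IP libraries together to the input was 6.08, with an exact 95% counting interval from 1.52 to 53.0, that of replicate 1 alone was 8.33 (1.98 to 74.3) and that of replicate 2 alone was 3.86 (0.771 to 37.3). Because it passed the filter through IP alone, these ratios describe its counts and do not show a higher level, and a count per mate makes the intervals narrower than the number of fragments would.

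The exon sequences were searched for GGAC, the core of the motif at which most m6A is placed, on the sense strand of the merged exons. The host transcripts had a median of 3.0 GGAC per kilobase, compared with 3.97 over all tested genes and 3.58 over long noncoding RNA genes. For the longer motif GGACT the medians were 0.337, 1.02 and 1.04. Snhg1 and Snhg3 had no GGAC, as did 1.64% of 18598 tested genes with sequence and 16.8% of the 244 whose exons total 400 to 500 bases. Exons of a transcript that was higher in IP, one that was lower and one with near-equal counts are shown, as GRCm38.p6 reads on the strand of the gene, with each GGAC in capitals.
Snhg15 exon 1 (chr11:6528548-6528760, minus strand): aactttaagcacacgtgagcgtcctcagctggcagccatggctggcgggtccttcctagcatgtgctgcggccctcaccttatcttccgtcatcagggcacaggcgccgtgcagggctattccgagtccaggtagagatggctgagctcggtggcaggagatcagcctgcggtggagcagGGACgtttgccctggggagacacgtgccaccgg
Snhg15 exon 2 (chr11:6528306-6528374, minus strand): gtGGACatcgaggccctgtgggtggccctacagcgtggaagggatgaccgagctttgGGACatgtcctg
Gas5 exon 3 (chr1:161035752-161035804, plus strand): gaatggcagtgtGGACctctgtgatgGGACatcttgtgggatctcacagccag
Snhg1 exon 3 (chr19:8724403-8724483, plus strand): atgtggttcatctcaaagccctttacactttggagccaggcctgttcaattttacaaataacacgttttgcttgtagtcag
The motif did not order the ratios among the host transcripts. Over the joined exons Gas5 had the most, 6.45 per kilobase, and Snhg4 followed with 5.21, and both were depleted. Of the 4 GGAC of Gas5, 3 lie inside single exons, and its first place depends on counting the motif at a join. Snhg15 had 5.07 per kilobase and was higher in IP. Of the transcripts with no GGAC, Snhg3 was depleted and Snhg1 was not called. The count of a motif does not say whether any of these sites is methylated, and methylation was not measured in these libraries. GC content had a median of 45.4% over the host transcripts, compared with 49.6% over all tested genes and 47.9% over long noncoding RNA genes, and 7 of the 10 lay below the median of all tested genes.

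Summed by host, the snoRNA genes inside the introns were lower in IP than the exons around them. Of the 29 snoRNA genes, 6 had no count in any library, 15 had at least 10 counts in some library and 14 were tested. All 14 had log2 fold changes below 0, with a median of −2.10. Depleted were 9 (64.3%, against 14% of all tested genes), and none was enriched (against 15.2%). Of these 14, 5 reached the filter through the input alone, so they had to be lower in IP. The other 9 also reached it in an IP library, and of them 5 were depleted, with a median of −1.97. With the trend of the ratio with length removed, 10 were below 0, 6 were depleted and the median was −0.59, and with the exon density trend removed 11 were below 0, 6 were depleted and the median was −1.02. Their counts are shown beside the host exons because the 2 products of a host gene part after splicing. Summed over all 28 intronic snoRNA genes, with no filter, the input gave 1073 counts and IP replicates 1 and 2 gave 233 and 200, while the exons of the 10 hosts had 7656, 6118 and 5961 counts. The log2 ratios to input were −2.23 and −2.47 for the snoRNA genes and −0.35 and −0.41 for the hosts. There were 14.0 snoRNA gene counts per 100 host counts in the input, and 3.81 and 3.36 in IP. The snoRNA genes therefore held 12.3% of the counts of these loci in the input (95% Wilson interval 11.6 to 13). In the IP libraries they held 3.67% (3.23 to 4.16) and 3.25% (2.83 to 3.72). A count per mate makes these intervals, too, narrower than the number of fragments would.

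**Figure D4:**
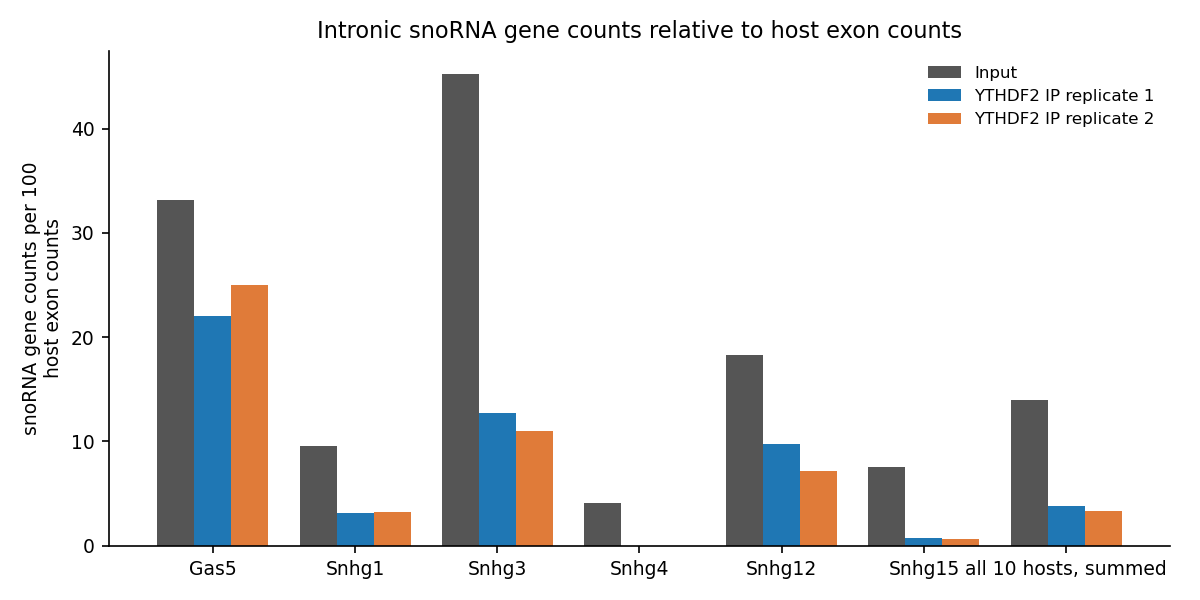
Counts of intronic snoRNA genes per 100 exon counts of their host, in the input (grey) and in YTHDF2 IP replicates 1 (blue) and 2 (orange), for the 6 hosts with at least 10 snoRNA gene counts and for all 10 hosts summed. In each of the 6 hosts both IP bars are below the input bar, and those of Snhg4 are at 0.

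The ratio of the intronic snoRNA genes was below that of their host in both IP libraries in 6 of the 6 hosts with at least 10 snoRNA gene counts. For Snhg4 and Snhg15 only the input reached those 10 counts, so a low IP ratio is built in for these 2. For Snhg15 the host exons rose while the snoRNA gene in its intron, annotated as LOC115487884, gave 53 input counts but 8 and 7 IP counts (log2 fold change −2.84). That gene passed the filter through the input alone and had to be lower in IP. For Snhg1, whose exon counts were nearly equal, the 8 snoRNA genes together had 142, 46 and 48 counts. For Snhg3 the sums were 569, 82 and 57 counts, for Gas5 153, 36 and 40, and for Snhg12 127, 61 and 48. Reads over an intronic snoRNA gene may come from the mature snoRNA or from host RNA that is not yet spliced, and in these counts the 2 cannot be told apart. Most mature snoRNAs are shorter than the fragments such libraries favour, so these counts do not measure snoRNA abundance.

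The H/ACA genes of Snhg3 gave the most counts among the hosted snoRNA genes, and Snord22, in an intron of Snhg1, was among the box C/D genes that were not called. Their sequences are shown as examples of the 2 classes, with the last ACA of Snora73b and the last CTGA of Snord22, the box at the 3′ end of each class, in capitals.
Snora73b (chr4:132352322-132352526, minus strand): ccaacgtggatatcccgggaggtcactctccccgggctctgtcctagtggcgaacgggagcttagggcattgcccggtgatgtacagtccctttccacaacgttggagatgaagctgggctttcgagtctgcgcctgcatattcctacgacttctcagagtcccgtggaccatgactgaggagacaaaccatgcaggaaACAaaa
Snord22 (chr19:8725866-8725991, plus strand): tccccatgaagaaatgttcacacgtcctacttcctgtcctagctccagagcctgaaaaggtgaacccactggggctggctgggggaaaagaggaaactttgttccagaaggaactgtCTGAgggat
The ACA lies 3 bases from the 3′ end of Snora73b, and the CTGA lies 5 bases from that of Snord22. The letters TGATGA, a usual form of box C, were not found in Snord22. Snora73b gave 365 input counts and 58 and 35 IP counts, with a log2 fold change of −3.01 ± 0.292 (adjusted p = 4.254e-15). Snora73a had 204, 24 and 22 counts and a log2 fold change of −3.18 ± 0.391. Both were depleted, and since they are close paralogs, reads that match both were not counted. Snord22 had 31, 14 and 17 counts, and its log2 fold change of −1.03 did not pass the test (adjusted p = 0.203).

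Of the other hosted snoRNA genes, Snora74a in Snhg4 gave 25 input counts and 0 in both IP libraries, at least 8.5-fold and 8.63-fold lower against the floor of 3 counts per library. In Snhg12, Snora16a had 33, 0 and 3 counts and was depleted, whereas Snord99 had 45, 34 and 15 counts and Snora61 had 46, 27 and 28, and neither was called. In Gas5, LOC115487677 had 78, 14 and 24 counts and LOC115487644 had 43, 12 and 8, and both were depleted. LOC115487643, also in Gas5, had 17, 7 and 5 counts and was not called, and its log2 fold change of −1.52 was close to that of the host. In Snhg1, LOC115489082 had 43, 3 and 2 counts and LOC115489086 had 27, 11 and 3, and both were depleted. LOC115489078 was the tested one nearest to 0, with 17, 17 and 12 counts and a log2 fold change of −0.27, and LOC115489083, with 10, 0 and 3 counts, was not tested. Of the 15 snoRNA genes with at least 10 counts, 14 had their highest count in the input alone, and LOC115489078 shared its highest between the input and IP replicate 1. For 6 of the 14 the input was the only library with 10 counts, so it had to be the highest. Over 72 tested snoRNA genes in introns of protein-coding genes, 27 (37.5%, against 14% of all tested genes) were depleted and none (against 15.2%) was enriched. Their median log2 fold change was −1.78, or −0.63 with the length trend removed and −1.21 with a filter of 1 CPM. Of these 72, 38 reached the filter through the input alone and so had to be lower in IP, and 6 reached it through IP alone. Among the 28 that reached it in both, 10 were depleted and the median was −1.42, and among the 34 that reached it in an IP library, 10 were depleted and the median was −0.97.

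Other noncoding snoRNA hosts showed a like range. Of 11 such genes, 10 were tested, with a median log2 fold change of −0.49. None was enriched (against 15.2% of all tested genes) and 3 were depleted (30%, against 14%). The lowest were Snhg14, the host of the imprinted Snord115 and Snord116 clusters, with 628, 111 and 96 counts (−2.64 ± 0.212, adjusted p = 6.335e-19), Dancr with 614, 132 and 136 counts (−2.24 ± 0.201) and Snhg11 with 1033, 349 and 331 counts (−1.64 ± 0.145). All 3 were depleted, and the IP libraries of each were close. The highest were Zfas1 with 738, 976 and 921 counts (0.32 ± 0.129, adjusted p = 0.0269), Epb41l4aos with 690, 762 and 749 counts (0.09 ± 0.137) and Snhg10 with 21, 24 and 16 counts (−0.11 ± 0.734). Zfas1 passed the test at less than 2-fold, and the other two did not pass it.

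Of 60 protein-coding genes with a Snord or Snora gene in their span, 59 were tested, 1 (1.69%, against 15.2% of all tested genes) was enriched and 10 (16.9%, against 14%) were depleted, with a median log2 fold change of −0.46 that was −0.04 once the exon density trend was removed. At any fold change 12 of them were higher in IP and 41 were lower, where all tested genes had 28.5% and 30.1%. Among those with a mean of at least 10 CPM, the lowest were Tsr1, a ribosome biogenesis factor (−2.97 ± 0.141), Cct6a, a chaperonin subunit (−1.80 ± 0.0575), and Rpl32, a ribosomal protein (−1.27 ± 0.0484). The highest were 2410002F23Rik (1.49 ± 0.0729), which was the enriched one, Zbed3 (0.89 ± 0.0981) and Kansl2, a subunit of a histone acetyltransferase complex (0.74 ± 0.0683).

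The mRNAs of the proteins that bind snoRNAs were mixed. Among the 4 core proteins of box C/D particles, Nop58 (−0.96 ± 0.059), Fbl, the methyltransferase (−0.73 ± 0.0568), and Snu13 (−0.22 ± 0.0579) were lower in IP, and Nop56 was higher (0.37 ± 0.0525), none by more than 2-fold. Among the 4 of H/ACA particles, Dkc1, the pseudouridine synthase, had 9939, 2135 and 2340 counts and was depleted (−2.19 ± 0.0676), as was Nop10 (−1.27 ± 0.0785), while Gar1 (0.47 ± 0.0723) and Nhp2 (0.19 ± 0.0577) were higher at less than 2-fold. All 8 had an adjusted p under 0.05, with 3 higher and 5 lower (28.5% and 30.1% of all tested genes). Of the 8, 2 were depleted (25%, against 14%) and none was enriched (against 15.2%). Of 11 tested assembly and transport factors, none was enriched and 3 (27.3%) were depleted, against the same shares. Their median was −0.46, or −0.08 with the exon density trend and −0.74 with the GC trend removed.

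Genes that share a trait with the host transcripts were counted in the same way, against the 15.2% enriched, 14% depleted, 28.5% higher and 30.1% lower at any fold change of all tested genes. Of 18 mRNAs with a terminal oligopyrimidine start that do not encode ribosomal proteins, none was enriched and 6 were depleted, and at any fold change 1 was higher and 16 were lower (median −0.68, or −0.44 with the exon density trend removed). Of 13 transcripts used as reporters of nonsense-mediated decay, 3 were enriched and 4 were depleted, and at any fold change 5 were higher and 7 were lower (median −0.25). Of 10 tested noncoding RNAs listed as nuclear, 4 were depleted and 1 was enriched (median −0.40, or −0.14 with a filter of 1 CPM). At any fold change 3 of the nuclear ones were higher and 5 were lower. The enriched one was Norad, which is known to be mostly cytoplasmic and is named here after its value was seen. The median of the host transcripts, −0.41, lay within the range of these lists, and none of these counts was tested as a set. The lists compared here share genes. Eef1b2, Eef2, Eif4a2 and Tpt1 are both terminal oligopyrimidine mRNAs and protein-coding hosts, and Nop56 and Nop58 both encode snoRNA-binding proteins and are such hosts.

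**Figure D5:**
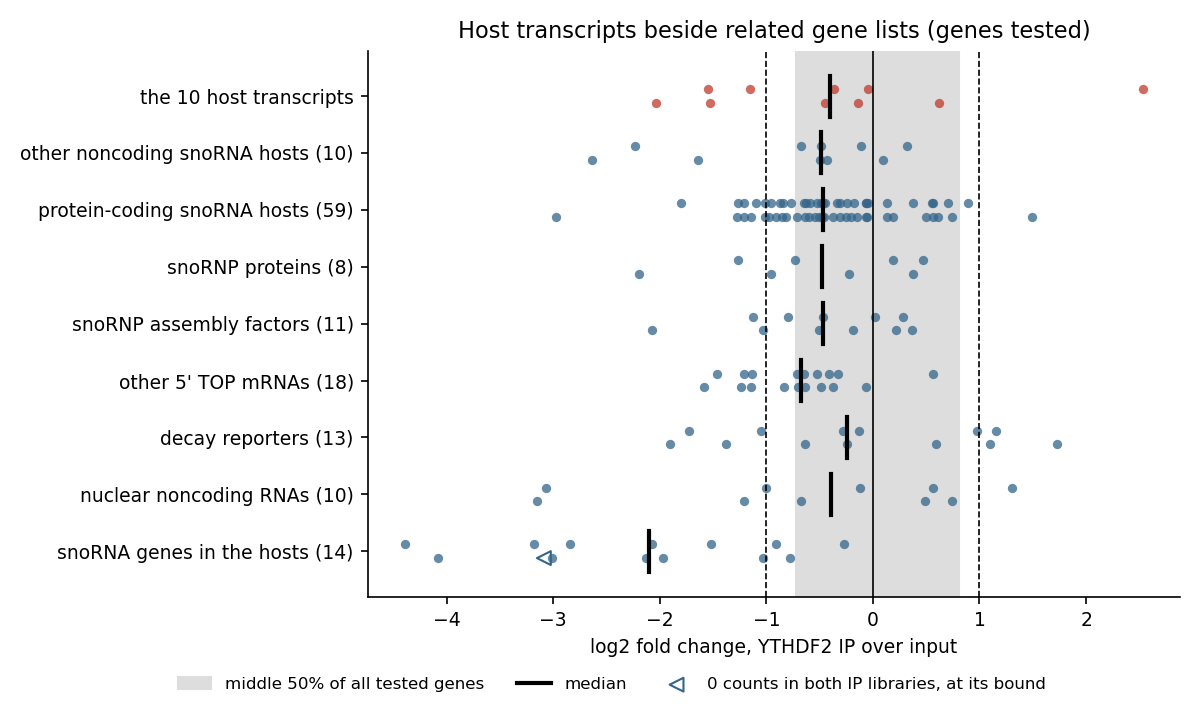
Fitted log2 fold change of YTHDF2 IP over input for each tested gene (points) of the host transcripts (red) and of related lists (blue), with the number tested in brackets, list medians as black bars, the middle 50% of all tested genes in grey and the 2-fold lines dashed. The medians of the host transcripts and of every list shown are below 0, lowest in this fit for the snoRNA genes in the hosts at −2.10. With the length trend removed that median is −0.59, above the −0.72 of the terminal oligopyrimidine mRNAs. The median of the decay reporters is 0.25 once the GC trend is removed. The open triangle marks Snora74a at its bound.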

How the data were processed

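RIP-seq libraries of E14 ESCs (1 input, 2 YTHDF2 IP) were grouped by their titles. By the methods, YTHDF2 was precipitated from cleared lysate, whereas the labels describe Trizol RNA used in the IP. Which was done is not known here. The authors aligned reads to mm10, and the deposited values are raw counts per gene over RefSeq exons, per the file headers from featureCounts 2.0.3 in paired mode without pair counting and without strand, so each mate counts on its own. The libraries were made by a strand-specific (dUTP) protocol per the labels. By its defaults that tool drops reads that map to several places or touch several genes. The submitters' processing notes also name fastp 0.19.4, HISAT2 2.2.1 and DESeq2 1.40.2. The table held 0 columns of other samples.

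The counts were fitted in R 4.3.3 with edgeR 4.0.16 (filterByExpr, TMM factors 0.957, 1.02 and 1.02 in the order input, IP 1, IP 2, robust quasi-likelihood F test with 1 residual degree of freedom, common dispersion 0.00538). Genes were called at a Benjamini-Hochberg adjusted p under 0.05 and a fold change over 2. Ratios of single IP libraries used 0.5 added to each count. Trends were removed as lowess offsets with a span of 0.3. DESeq2 1.42.0 was an alternative. The fit was tested on simulated data. GRCm38.p6 (mm10) gave the same span for 47550 of 47553 genes placed at 1 locus of the main chromosomes, and coordinates are 1-based on it. Sequences are credited to RefSeq.

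The host genes and the lists were chosen with earlier results of these data known. The named genes were the 10 hosts, snoRNA genes inside them with at least 10 counts in any library, genes whose exons overlap theirs (1 is not reported here), the 3 highest and 3 lowest of the other noncoding hosts and of the protein-coding hosts (mean at or above 10 CPM), plus the snoRNP proteins.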

Additional observations from a re-analysis of the deposited data

How the results depend on the processing

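No paired analysis was possible because the series has 1 input and its title has no number to match with an IP library. Each host transcript was refitted under 14 alternatives, 1 of them, the older quasi-likelihood method of edgeR, chosen after seeing the data. The 1 CPM filter gives no value for Snhg6 and Snhg18. The number of depleted host transcripts was 4. It was 2 with the GC or the exon density trend removed, 3 with DESeq2, the 1 CPM filter, a fixed dispersion of 0.1, the length trend removed or IP replicate 2 left out, and 4 otherwise. The number of enriched ones was 0, and 2 (Snhg1 and Snhg15) with the exon density trend removed. Snhg1 crossed 0 to 0.46 with the GC trend and 1.25 with the exon density trend removed, and Snhg12 to 0.47 with the latter. The median of the host transcripts was −0.16 with the GC trend and −0.19 with the exon density trend removed. With IP replicate 1 or 2 left out, no test is possible, and by fold alone 1 host transcript (Snhg18) was over 2-fold higher in either case. A fixed dispersion of 0.1 left 1577 enriched and 1531 depleted genes of all tested. With effective library sizes, the share of the host transcripts in the input was 0.0216%. The median density of GGACT was 0.337 per kilobase, where GGAC gave 3.0. The median of the decay reporters turned to 0.25 with the GC trend removed. Total count scaling moved the median of all genes from 0.0065 to 0.10 on the log2 scale. The causes of these shifts were not tested. Over the fits with a test, adjusted p-values reached at most 0.317 for Gas5, 0.131 for Snhg3, 0.0377 for Snhg4 and 0.0796 for Snhg6. The input has no replicate, and at the depth of Snhg18 its adjusted p was above 0.05 in every fit.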

Other observations

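With hosts of any annotated snoRNA counted, and not only those of a Snord or Snora gene, 192 of 213 protein-coding hosts were tested. Of these, 6 (3.12%, against 15.2% of all tested genes) were enriched and 38 (19.8%, against 14%) were depleted. Their median log2 fold change was −0.46, or −0.17 with the exon density trend and −0.24 with the GC trend removed. Among 52 noncoding hosts other than the 10 described, 20 were tested. Of those, 1 (5%) was enriched and 6 (30%) were depleted, against the same shares. Their median was −0.49, or −0.32 with the exon density trend removed.

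The genes named next were chosen after their values were seen. Among the transcripts used as reporters of nonsense-mediated decay, the enriched ones were Ddit3 (1.72 ± 0.14), Gadd45a (1.15 ± 0.102) and Gadd45b (1.10 ± 0.0876), which respond to stress, as do Atf4 (0.97 ± 0.0601), which was not called at 2-fold, and Cdkn1a (−0.28 ± 0.081), which was lower in IP at less than 2-fold. The depleted ones were Srsf7 (−1.91 ± 0.0628), Tra2b (−1.72 ± 0.0555), Srsf3 (−1.38 ± 0.0518) and Srsf2 (−1.05 ± 0.0506), which encode splicing regulators, as do Srsf6 (−0.25 ± 0.0533) and Hnrnpdl (−0.64 ± 0.0593), which were not depleted. Among the factors that assemble snoRNA particles, the depleted ones were Naf1, which delivers dyskerin to nascent H/ACA RNA (−2.07 ± 0.116), Rpap3 (−1.12 ± 0.099) and Ruvbl1 (−1.03 ± 0.0719). The terminal oligopyrimidine mRNA that was higher in IP was Eef2, an elongation factor (0.56 ± 0.0397), and Hnrnpa1 was the lowest of that list (−1.58 ± 0.048).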
